A study of Mus musculus with 3 samples.

Results

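Mature dendritic cells were picked from mouse melanoma by the actin-bundling protein Fscn1 and the chemokine receptor Ccr7, and 97 of 43730 deposited cells met the conditions. A cell was taken if it held at least 2 counts of Fscn1 and 1 of Ccr7, fewer than 10 of C1qa, C1qb and C1qc together, and at most 1 of Cd3d, Cd3e and Cd3g together and 1 of Ncr1 and Klrb1c together. The last conditions set aside cells with counts of complement C1q, made by many macrophages, of the T cell receptor's CD3 chains, and of receptors of natural killer cells. The cells came from tumours of the melanoma line YUMM1.7, grown under the skin of mice aged 4, 12 and 20 months after injection of 500000 cells and taken 18 days later, and live CD45-positive leukocytes were sorted with an antibody to CD45.2. The labels name 7 mice per age and give 1 library per age, made with a PIP-seq 3′ kit, and do not give strain or sex or say how the mice contributed to a library. All groups were tumour-bearing, so no value here describes tissue without a tumour, and with 1 library per age no difference by age has a replicate check. The 52, 24 and 21 cells found at 4, 12 and 20 months carried no barcode that recurred among the picked cells of another library.

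Dendritic cells sample their surroundings in an immature state, and on maturation they lower uptake, raise Ccr7 and move along gradients of its ligands to the lymph node, where they present antigen to T cells. Mature cells of this kind are also known in tumours, where they carry both costimulatory ligands and ligands that restrain T cells, such as Cd274 (PD-L1). They are known to descend from either type of conventional dendritic cell: type 1, marked by Xcr1 and Clec9a, or type 2, marked in the mouse by Cd209a among others.

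Most of the cells held the other marker genes that belong to the label. Ccl22, a chemokine that draws Ccr4-bearing T cells, and Cacnb3, a calcium channel subunit typical of mature dendritic cells, were not used to pick cells, and 88 of the 97 held a count of at least one and 56 of both. The remaining 9 held neither. Of Cd3-positive cells, 2.84% held Ccl22 and 1.35% Cacnb3. Both genes are part of the label's marker list, so their presence describes the cells and is not a separate test of the label. The 4-month cells at both minimums, 2 counts of Fscn1 and 1 of Ccr7, held 0 counts of Ccl22, Socs2, Relb and Il4i1. Lists of other cell types were summed without the genes by which any class was picked. The 9 remaining plasmacytoid markers summed to 374, 410 and 375 CPM (counts per 1000000 of the summed counts) at 4, 12 and 20 months, against 9838 to 11152 CPM in plasmacytoid cells of the same libraries, and Siglech was at 0. The 9 remaining monocyte and macrophage markers summed to 3315, 1869 and 2153 CPM, against 13688 to 15456 CPM in cells with at least 10 counts of C1q and 9149 to 11107 CPM in Cd3-positive cells. The 3315 CPM at 4 months include Lyz2, of which a single cell held 504 counts, among 336939 counts of all genes in the 52 cells. The B cell markers Cd79a, Ms4a1 and Pax5, the melanoma genes Mlana, Dct and Tyrp1 and the fibroblast collagen Col1a1 were all at 0. Every value of 0 allows up to 3 counts, which is 8.90, 19.2 and 22.0 CPM in the 4-, 12- and 20-month cells. Cells just below the Fscn1 minimum differed from those just above it in these markers: 24 cells with 1 count of Fscn1 held 119 CPM of Ccl22 and 41.7 CPM of Cacnb3, 9 cells with 2 counts held 411 and 279.5 CPM, and the 88 cells with 3 or more held 707 and 352 CPM.

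Median depth in the picked cells was 5791, 6576 and 5795 counts per cell at 4, 12 and 20 months, with 336939, 156231 and 136115 counts in all. The shallowest picked cell held 3686, 4576 and 4414 counts, and the shallowest of all deposited cells 3555, 4493 and 4356. Cells below 4356 counts were thus present in the 4-month library only, and their part in the numbers and shares by age was not tested. A single count was worth 2.97, 6.40 and 7.35 CPM. Intervals are 95% and cover counting error only, not the spread between mice or cells, and reads without a known molecular identifier need not be independent molecules.

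The picked cells were a minority of all cells with Fscn1 and Ccr7, because of the Cd3 condition. The Fscn1 and Ccr7 minimums alone were met by 484 cells (159, 197 and 128 at 4, 12 and 20 months), of which 429 held Ccl22 or Cacnb3, and 381 of the 484 (78.7%) failed the Cd3 condition. Over all cells of a library, T cells included, the median was 3, 10 and 7 counts of Cd3 at 4, 12 and 20 months. At most 1 was held by 26.0%, 7.09% and 12.0% of all cells. The Cd3-positive class described below held 6464, 7802 and 7867 cells. The values over all cells therefore do not measure stray Cd3 in other cells. Cells with at least 3 counts of the B cell gene Cd79a, which should lack Cd3, still carried a median of 1, 4 and 3 counts and a mean of 3.96, 9.72 and 5.24 counts (25, 25 and 21 cells), so the median 4-month cell was within the Cd3 condition. A second reading beside the 97 used 335 cells that failed the Cd3 condition or the Ncr1 and Klrb1c condition, but none of the others. These numbered 100, 151 and 84 by age. They are called look-alike cells below. Their 8 T cell markers other than the Cd3 genes summed to 1085, 1192 and 966 CPM, against 653, 992 and 852 CPM in the picked cells and between 5338 and 5757 CPM in Cd3-positive cells. Their 9 natural killer cell markers, Ncr1 and Klrb1c included, summed to 1902, 1190 and 817 CPM, against 878, 1018 and 580 CPM in the picked cells. The look-alike cells were also deeper, with medians of 7729.5, 9424 and 7630.5 counts per cell, against 5791, 6576 and 5795 in the picked cells. Doublet scores were among the top 6% of their library in 4.00%, 5.30% and 17.9% of the look-alike cells and in 3.85%, 8.33% and 9.52% of the picked ones. Whether the look-alike cells were single cells with stray RNA or pairs with a T cell was not tested.

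As a share of all cells, mature dendritic cells by these conditions were rarer in the 2 older libraries, but this depended on the Cd3 condition at 12 months and on the denominator at both ages. They made up 0.361% (0.270 to 0.474%) of 14393 cells at 4 months, 0.164% (0.105 to 0.244%) of 14653 cells at 12 months and 0.143% (0.0885 to 0.219%) of 14684 cells at 20 months. The difference from 4 months was -0.197 percentage points (-0.322 to -0.0804) at 12 months and -0.218 (-0.341 to -0.104) at 20 months. With the Fscn1, Ccr7 and C1q conditions alone the shares were 1.06%, 1.19% and 0.715%, so the 12-month library was 0.138 points above the 4-month one (-0.105 to 0.382) and the 20-month library 0.341 points below it (-0.560 to -0.126). After every cell was thinned to 3500 counts, the cells that met all conditions came to 0.598%, 0.498% and 0.347%, with a difference of -0.0993 points (-0.272 to 0.0715) at 12 and -0.25 (-0.413 to -0.0929) at 20 months. Thinning also lowers counts of Cd3, so more cells passed: 210, of which 85 were among the 97. Without the Cd3, Ncr1 and Klrb1c conditions the thinned shares were 0.952%, 1.07% and 0.627%. The 20-month library was thus the lowest under each of these 4 readings of all cells, and the order of the 4- and 12-month libraries was not stable. The order of the 12- and 20-month libraries also varied with the conditions. With at least 1 count of Fscn1, 27 cells were found at 12 months and 31 at 20 months. The differences from 4 months were then -0.253 and -0.227 points. Stricter exclusions left 2 cells at 12 and 4 at 20 months. Among 4 kinds of dendritic cell taken by similar conditions (type 1 by Xcr1 and Clec9a, type 2 by Cd209a, plasmacytoid by Siglech), the picked cells were 29.5% of 176, 42.9% of 56 and 30.4% of 69 cells, with intervals that overlap. Of the 1693, 421 and 667 cells that met the C1q, Cd3 and Ncr1 and Klrb1c conditions they were 3.07%, 5.70% and 3.15%, which is 2.63 points (0.566 to 5.37) above 4 months at 12 months and 0.0770 points (-1.35 to 1.85) above it at 20 months.

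**Figure D1:**
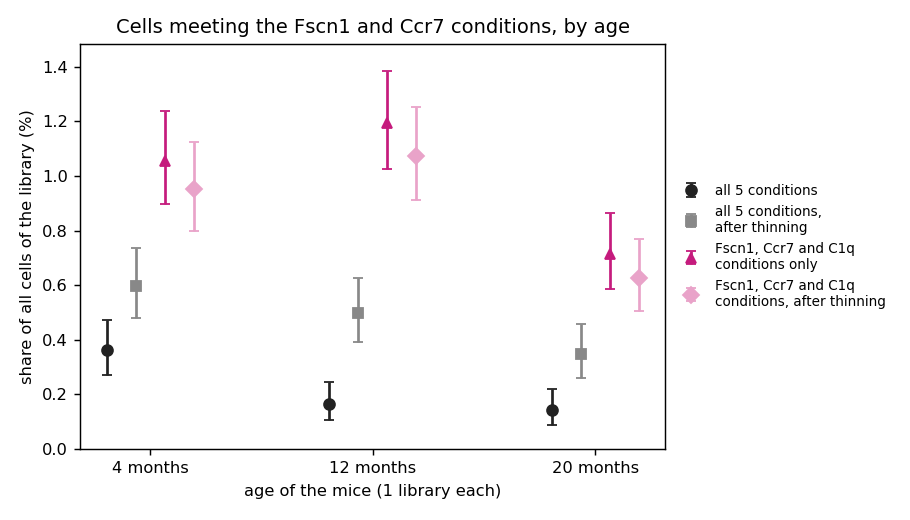
Share of all cells of a library, in percent, that met the conditions at each age, with 95% Clopper-Pearson intervals (counting error only, 1 library per age). Black and grey: all 5 conditions, before and after thinning to 3500 counts. Pink: Fscn1, Ccr7 and C1q conditions only. The 20-month points are lowest in each series, and the 12-month point moves from 0.164% to 1.19% when the Cd3, Ncr1 and Klrb1c conditions are dropped.

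Since the conditions chose the cells, the levels against other dendritic cells describe them and were not tested. Cells of the other classes had fewer than 2 counts of Fscn1, and no minimum of Ccr7 was set for them. They met the C1q, Cd3 and Ncr1 and Klrb1c conditions, except the one for the gene that defined them. Classes were named by at least 2 counts of Xcr1 and Clec9a, Cd209a, Siglech, Cd3 or Ncr1 and Klrb1c, or at least 10 of C1q. Type 1 cells also held no count of Cd209a, type 2 cells none of Xcr1 and Clec9a, and both fewer than 2 of Siglech. Dendritic classes were small, at 46 type 1, 76 type 2 and 82 plasmacytoid cells, with 6 type 1 and 9 type 2 cells at 12 months. A gene was counted as different where it was at least 2-fold apart in the same direction in all 3 libraries. Genes with at least 50 counts in either class, at the picked cells' total, were compared. Against type 1 cells 8.87% of 2797 genes were higher in the picked cells and 15.2% lower. Against type 2 cells 8.75% of 2618 genes were higher and 12.9% lower, and against plasmacytoid cells 10.7% of 3111 genes were higher and 26.1% lower.

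Most listed genes of dendritic cell maturation were higher in the picked cells. A gene could reach the 50 counts through the picked cells alone. The list was also chosen with earlier results of these data known, so its share of higher genes is a description only. Fscn1 (ENSMUSG00000029581.14, chr5:142960343-142973185, plus strand, GRCm38) stood at 2484, 2522 and 1653 CPM at 4, 12 and 20 months, and Ccr7 (chr11:99144196-99155077, minus strand) at 2897, 2778 and 2704 CPM, as the conditions required. Apart from these 2 genes, 14 of 16 measured maturation genes were higher than in type 1 cells and 15 of 16 higher than in type 2 cells. Tbc1d4, a Rab GTPase-activating protein that controls vesicle traffic, was at 1686, 1709 and 2013 CPM, against 107 CPM in type 1 and 40.2 CPM in type 2 cells, and was detected in 92 of the 97. Socs2, an inhibitor of cytokine receptor signalling, was at 795, 685 and 720 CPM against 5.08 and 12.2 CPM. Il4i1, a secreted amino acid oxidase that limits T cell growth, was at 733, 653 and 602 CPM against 12.7 and 36.7 CPM. These levels were close to each other across the 3 libraries and none overlapped those of the other dendritic cells. Nudt17 was at 510, 531 and 287 CPM and had no count in the type 2 cells, so it was at least 89.1-fold higher over the 3 libraries together. Gm2a, the lysosomal activator of ganglioside breakdown, was the member lower than in both types, at 59.4, 76.8 and 58.8 CPM against 843 and 832 CPM.

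Among secreted signals, Ccl5, which draws T cells and monocytes, and Il12b, the p40 chain shared by IL-12 and IL-23, were high at every age. Il12b (chr11:44400063-44414033, plus strand) reached 1169, 1146 and 1212 CPM, against 2.54 CPM in type 1, 10.5 in type 2 and 4.47 in plasmacytoid cells. It was present in 67 of 97 cells (69.1%), against 4.43% of Cd3-positive cells, which should lack it, at similar depth (medians of 6008 and 6231 counts). The expression was uneven, since the 5 highest cells held 34.7% of all Il12b counts. Il12a, the partner chain that makes IL-12, had 0 counts in the 97 cells. Ccl5 was at 10456, 13019 and 11071 CPM against 386 and 395 CPM in type 1 and type 2 cells, and was found in 96 of 97 cells. Ccl5 was also high in Cd3-positive cells (3762 CPM), and had a count in 93.5% of type 1 cells. The part of stray RNA in these counts was not tested. Cxcl16, whose receptor Cxcr6 is carried by effector T cells, stood at 1285, 1331 and 918 CPM against 124 and 129 CPM. In all, 8 of 11 measured chemokine and cytokine genes were higher than in type 1 cells and 5 of 11 higher than in type 2. Cxcl9 was lower than in type 1 cells (65.3, 44.8 and 73.5 against 381 CPM) and Cxcl10 lower than in type 2 cells (199, 160 and 169 against 2180 CPM). Both are chemokines induced by interferon. Ccl19, a ligand of Ccr7, was at 0.

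Ccl22 and Ccl17, chemokines that share the receptor Ccr4, did not mark all of the cells. Ccl22 (chr8:94745590-94751699, plus strand) was present in 65 cells and Ccl17 in 30, and 23 cells held both. Ccl17 was counted in 35.4% of cells with Ccl22 and in 21.9% of cells without it. The 5 highest cells carried 55.0% of the Ccl17 counts. Ccl17 was not specific among dendritic cells, at 187, 288 and 88.2 CPM by age against 164 CPM in type 2 cells.

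**Figure D2:**
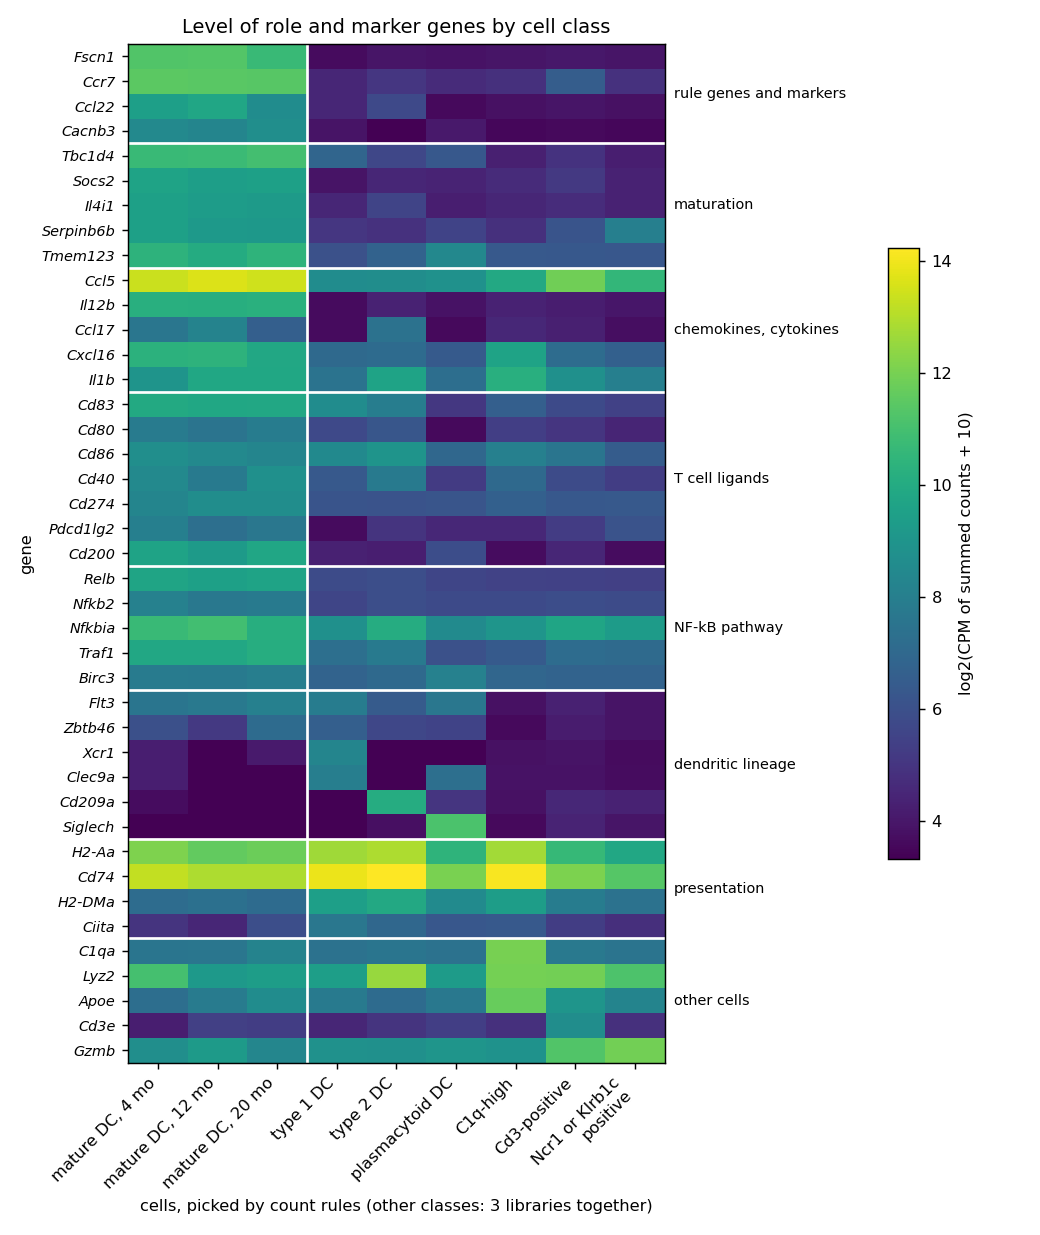
Level of role and marker genes, as log2(CPM of summed counts + 10), in the 97 mature dendritic cells (DC) by age in months (mo) and in 6 other cell classes over the 3 libraries together. Maturation, Il12b, Ccl5 and NF-kB rows are bright in the 3 left columns at every age, while Xcr1, Clec9a, Cd209a and Siglech are dark there.

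Several genes of a list of inhibitory ligands and regulators stood above the conventional dendritic cells. Of the inhibitory list, Cd274, Pdcd1lg2, Cd200 and Fas were higher than in both conventional types, 4 of 8 measured genes against type 1 and 4 of 7 against type 2. Cd274 was at 300, 397 and 397 CPM against 60.9 and 59.4 CPM, and had a count in 74 of 97 cells (76.3%), against 32.6% of type 1, 35.5% of type 2 and 32.4% of Cd3-positive cells. The part of stray RNA in these shares was not tested. Pdcd1lg2 (PD-L2, the second ligand of PD-1) was at 255, 147 and 191 CPM against 2.54 and 21.0 CPM. Cd200, whose receptor restrains myeloid cells, was at 789, 614 and 882 CPM against 10.2 and 8.74 CPM. The 3 genes thus differed from both conventional types at every age. Of 8 measured costimulatory genes, 2 (Cd80 and Tnfrsf9) were higher than in type 1 cells and 0 were higher than in type 2 cells. Cd86 was at 413, 339 and 301 CPM in the picked cells, 348 CPM in type 1 and 486 CPM in type 2 cells. Cd83, a surface marker of mature dendritic cells, was at 973, 883 and 926 CPM against 381 and 238 CPM, but was not 2-fold apart in every library. Counts of both Cd274 and Cd80 were found in 50 cells, and of neither in 12 cells.

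Some transcription factors of the NF-kB family stood above the other dendritic cells. Relb, the subunit of the noncanonical pathway, was at 831, 717 and 786 CPM against 45.7 CPM in type 1 and 52.4 CPM in type 2 cells. Its partner Nfkb2 was at 264, 198 and 213 CPM against 38.1 and 52.4 CPM. Traf1, an adaptor of TNF receptors that NF-kB induces, was at 920, 922 and 1109 CPM against 147 and 208 CPM. Stat4, which relays IL-12 signals, was at 466, 416 and 353 CPM against 43.2 and 62.9 CPM. These 4 genes were higher at each age. In all, 7 of 17 measured genes of the list were higher than in type 1 cells, 7 of 16 were higher than in type 2 cells, and 0 were lower than either. Nfkbia and Nfkbib, inhibitors of NF-kB, were higher than in type 1 but not type 2 cells by this measure: Nfkbia was at 1656, 1971 and 1131 CPM against 439 and 1086 CPM. Nfkb1 was not higher than in either, at 193, 128 and 309 CPM against 130 and 247 CPM.

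Promoters of 4 genes are printed, Nfkbia and Nfkb2 of the NF-kB and IRF list and Tnfaip3 and Pdcd1lg2 of the inhibitory list. The printed promoters show where the kappaB consensus, the 10-base motif that NF-kB dimers bind, stands in these genes. They are RefSeq promoters on GRCm38.p6, from 250 bases before to 50 after the annotated start, written 5′ to 3′ on the gene's strand, with matches on either strand in capitals. Nfkbia encodes the inhibitor IkB-alpha, Tnfaip3 the deubiquitinase A20, both feedback inhibitors of NF-kB, and Nfkb2 and Pdcd1lg2 are described above. Nfkb2 has 3 annotated starts and Tnfaip3 has 2, and the one shown is the most upstream of those whose promoter held a match. Promoters without a match were not considered for printing.
Nfkbia, chr12:55492598-55492897, minus strand: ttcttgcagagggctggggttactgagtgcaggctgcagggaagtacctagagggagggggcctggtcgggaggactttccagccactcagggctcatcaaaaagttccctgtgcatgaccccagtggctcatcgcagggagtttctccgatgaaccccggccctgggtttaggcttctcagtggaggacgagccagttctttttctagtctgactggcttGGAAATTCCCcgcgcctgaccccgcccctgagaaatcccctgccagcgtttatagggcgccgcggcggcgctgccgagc
Nfkb2, chr19:46304487-46304786, plus strand: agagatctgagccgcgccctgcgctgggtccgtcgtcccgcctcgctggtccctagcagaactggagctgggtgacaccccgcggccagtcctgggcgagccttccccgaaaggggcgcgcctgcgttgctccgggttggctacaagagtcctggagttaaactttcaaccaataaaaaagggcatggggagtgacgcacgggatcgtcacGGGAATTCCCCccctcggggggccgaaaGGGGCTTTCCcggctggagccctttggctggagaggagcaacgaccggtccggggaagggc
Tnfaip3, chr10:19015361-19015660, minus strand: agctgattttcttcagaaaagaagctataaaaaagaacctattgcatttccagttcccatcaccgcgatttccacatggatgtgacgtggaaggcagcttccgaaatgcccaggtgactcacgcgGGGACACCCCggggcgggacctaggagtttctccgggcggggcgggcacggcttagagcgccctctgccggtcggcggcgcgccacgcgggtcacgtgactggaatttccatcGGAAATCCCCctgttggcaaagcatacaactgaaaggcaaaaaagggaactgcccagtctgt
Pdcd1lg2, chr19:29410669-29410968, plus strand: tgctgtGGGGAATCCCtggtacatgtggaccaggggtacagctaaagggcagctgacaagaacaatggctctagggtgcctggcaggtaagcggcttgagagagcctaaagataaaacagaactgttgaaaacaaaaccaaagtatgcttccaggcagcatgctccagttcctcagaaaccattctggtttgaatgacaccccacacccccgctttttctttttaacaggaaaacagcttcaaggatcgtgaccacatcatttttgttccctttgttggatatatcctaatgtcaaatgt
The match nearest the start began 29 bases before it in Nfkbia, 11 in Nfkb2 and 12 in Tnfaip3, and those of Pdcd1lg2, 1 on each strand, began 244 bases before it. In Nfkb2, Tnfaip3 and Pdcd1lg2 some matches stand at the same bases on both strands. Of 18 genes of the NF-kB and IRF list with a promoter in the table, 7 (38.9%) held a match in at least 1 promoter, against 2581 of 27025 genes (9.55%) in all. For the inhibitory list, which holds Tnfaip3 and Pdcd1lg2, it was 2 of 12 genes (16.7%). It was 2 of 6 genes (33.3%) for the costimulatory list and 4 of 13 (30.8%) for the chemokine and cytokine list. For the maturation list it was 1 of 15 genes (6.67%), and the promoters of Fscn1, Ccl22, Cacnb3 and Il12b held none. A match is a description of these letters and does not show binding.

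Most measured markers of type 1 and of type 2 cells were lower in the picked cells than in those classes. From which class the picked cells descended was not tested. Flt3, the receptor of the growth factor for dendritic cells, was at 178, 205 and 257 CPM, between 76.9 CPM in type 2 and 229 CPM in type 1 cells at 4 and 12 months, and against 4.00 CPM in C1q-high cells. Zbtb46, a transcription factor of conventional dendritic cells, was at 53.4, 25.6 and 132 CPM, against 2.22 CPM in C1q-high cells. Genes of type 1 cells that no condition used were near 0: Naaa was at 20.8, 12.8 and 14.7 CPM against 1252 CPM in type 1 cells, and Wdfy4 at 8.90, 19.2 and 29.4 CPM against 1061 CPM. Irf8, a factor needed for type 1 and plasmacytoid cells, was the exception at 620, 538 and 456 CPM, against 823 CPM in type 1 cells, 1043 CPM in plasmacytoid cells and 112 CPM in type 2 cells. Id2, which is also needed for conventional cells, was at 1573, 1549 and 1726 CPM against 1394 CPM in type 1 and 295 CPM in type 2 cells. Xcr1 and Clec9a had 4 and 3 counts in the 97 cells, and Cd209a 1. Of 6 measured type 2 markers, 5 were lower than in type 2 cells: Cd209a, which defined that class, Sirpa, Clec10a, Itgam and Ms4a6c. Of 8 measured markers of dendritic cells as a whole, 2 (Itgax and H2-Ab1) were lower than in type 1 cells and 0 higher. Against type 2 cells 1 of 6 was lower (H2-Ab1) and 1 higher (Batf3).

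Genes of peptide loading on MHC class II were lower, and several of class I were higher. H2-DMa and H2-DMb1, the chains that exchange peptides on class II, were at 134, 154 and 132 CPM and at 94.97, 96.0 and 125 CPM, against 711 and 792 CPM in type 1 and 944 and 963 CPM in type 2 cells. Ciita, the master activator of class II genes, was at 20.8, 12.8 and 51.4 CPM against 190 and 115 CPM. Marchf1, the ligase that removes class II from the surface, had 12 counts in all and was 12.0-fold lower than in type 1 cells (6.53 to 24.1). Of measured class II genes, 5 of 10 were lower than in type 1 and 4 of 9 lower than in type 2 cells, and 0 were higher. H2-Aa, at 4407, 3149 and 3556 CPM, was below 6497 and 7571 CPM but within 2-fold in at least 1 library. Of 11 class I genes, 4 were higher than in each type. Psme2, a subunit of the proteasome activator, was at 2223, 2266 and 1851 CPM against 584 and 490 CPM, and B2m, the light chain of class I, at 15021, 16437 and 14003 CPM against 4743 and 6718 CPM. Of the uptake list, 1 of 4 measured genes was higher and 2 lower (Clec9a, which defined the class, and Tlr3) than in type 1 cells, and 1 of 7 higher and 6 lower than in type 2 cells, among them Cd209a, which defined that class. Clec10a was at 0 against 7.62 and 232 CPM, Cd36 at 0 against 50.8 and 0 CPM, and Mrc1 at 0 against 2.54 and 26.2 CPM. Clec7a (dectin-1) was the higher gene in both, at 421, 250 and 661 CPM against 27.9 and 121 CPM, with a count in 55 of 97 cells (56.7%), against 22.0% of Cd3-positive and 55.1% of C1q-high cells.

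Surface, cytoskeletal and dividing-cell genes completed the description. Cd63, a tetraspanin of endosomes, stood at 2778, 2029 and 2586 CPM against 48.2 and 22.7 CPM, and the adaptor Samsn1 at 2416, 2496 and 2388 CPM against 25.4 and 136 CPM. Of measured migration genes, 6 of 15 were higher and 1 lower than in type 1 cells, and 7 of 17 were higher and 5 lower than in type 2 cells. The interferon list had 0 genes higher and 4 of 15 lower than in type 1 cells, with Irf7 at 448, 416 and 448 CPM against 1412 CPM, and 5 of 15 lower than in type 2 cells. Mki67, a marker of dividing cells, was found in 5 of 97 cells, and Top2a in 8. Nr4a3, an early-response nuclear receptor, was higher than in type 1 cells, at 350, 198 and 566 CPM against 38.1 CPM, while Fos, Egr1 and Nr4a1 were lower.

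Outside the lists, 15 genes with at least 100 CPM at every age were picked for the largest ratio over all other cells in the library where it was lowest. They were Mmp25 (a membrane-bound metalloprotease), Ramp3 (a partner of the calcitonin-family receptors), Adcy6 (an adenylyl cyclase), Cacna1s (a calcium channel subunit), H2-M2 (a nonclassical class I gene), Mreg, Strip2, Nostrin, Actn1, Tmem39a, Poglut1, Fabp5, its near-copy Gm18103, and the antisense RNAs 1810064F22Rik and Gm13546. Mmp25 was at 350, 333 and 375 CPM against 11.0 CPM in all other cells, in 76 of 97 cells. Ramp3 was at 629, 378 and 676 CPM against 10.9 CPM, and Adcy6 at 154, 160 and 147 CPM against 1.99 CPM. Fabp5 (926, 1133 and 801 CPM) and the pseudogene Gm18103 (801, 922 and 544 CPM) may share reads, and neither value is certain. The 2 antisense genes cannot be told apart from their partners, because use of strand is not given.

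Across age few genes of the picked cells were past 2-fold in either direction. Genes with at least 50 counts in the 2 libraries together were compared. At 12 against 4 months 1.15% of 1560 genes were 2-fold or more higher and 4.04% lower. At 20 against 4 months 1.06% of 1503 genes were higher and 3.53% lower. The 4-month cells held the most counts in all, so a gene high there reached the minimum more easily. The shares of higher and lower genes are therefore not comparable. Over all genes compared the median log2 ratio was -0.02 at 12 and -0.03 at 20 months. Of 15 maturation genes, 0 were 2-fold higher and 1 (Apol7c) was 2-fold lower at each age, with a median log2 ratio of -0.26 at 12 and -0.28 at 20 months. Among 16 NF-kB and IRF genes at 12 months and 15 at 20 months, 0 passed 2-fold, with medians of -0.20 and -0.08. Costimulatory genes had medians of -0.08 (8 genes) and -0.21 (6 genes), and inhibitory genes -0.08 (6 genes) and 0.16 (5 genes). None of the intervals for these medians, taken as the medians of the genes' own bounds, left out 0, but those of the class I and class II lists did at 1 age each. Lists with only 1 or 2 measured genes also did. The uptake list (2 genes) had -1.30 (-1.75 to -0.89) at 12 and -0.49 (-0.86 to -0.14) at 20 months. The lipid-handling list (1 gene) had 1.45 (0.86 to 2.04) at 20 months, and the cell cycle list (1 gene) 0.52 (0.17 to 0.85) at 12 months. Chemokine and cytokine genes had medians of 0.30 (10 genes) and -0.21 (9 genes), migration genes -0.003 (14 genes) and -0.06 (12 genes), interferon genes -0.23 (12 genes) and 0.003 (10 genes) and early-response genes 0.22 and -0.28 (6 genes each). Class II genes had a median of -0.33 (-0.57 to -0.13, 7 genes) at 12 months and 0.01 at 20 months, and in the look-alike cells 0.11 at 12 months. Class I genes had a median of -0.26 (-0.55 to -0.02) at 20 months, with 11 of 11 below 4 months and 0 past 2-fold, and in the look-alike cells the median was -0.07.

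Look-alike cells at 20 months gave lower values for T cell ligands and class II. Their costimulatory genes had a median of -0.55, with 9 of 10 below 4 months, and their class II genes -0.41, with 8 of 8 below. Their inhibitory genes had a median of -0.48, with 8 of 11 below. In these cells 1.93% of 5641 genes were 2-fold or more higher and 1.15% lower at 12 months, and 1.11% of 4138 genes higher and 1.86% lower at 20 months. Here too the minimum favoured genes high in the larger sum, with 843985, 1499390 and 716411 counts in all at 4, 12 and 20 months. Cd40 was at 453, 377 and 269 CPM by age in the look-alike cells (log2 ratio at 20 months -0.75, -1.01 to -0.50) and at 344, 211 and 441 CPM in the picked cells (0.36, -0.12 to 0.82). Cd274 was at 431, 349 and 279 CPM in the look-alike cells and at 300, 397 and 397 CPM in the picked ones. The 2 sets of cells thus pointed in opposite directions for Cd40 and Cd274 at 20 months, and for Cd274 also at 12 months.

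**Figure D3:**
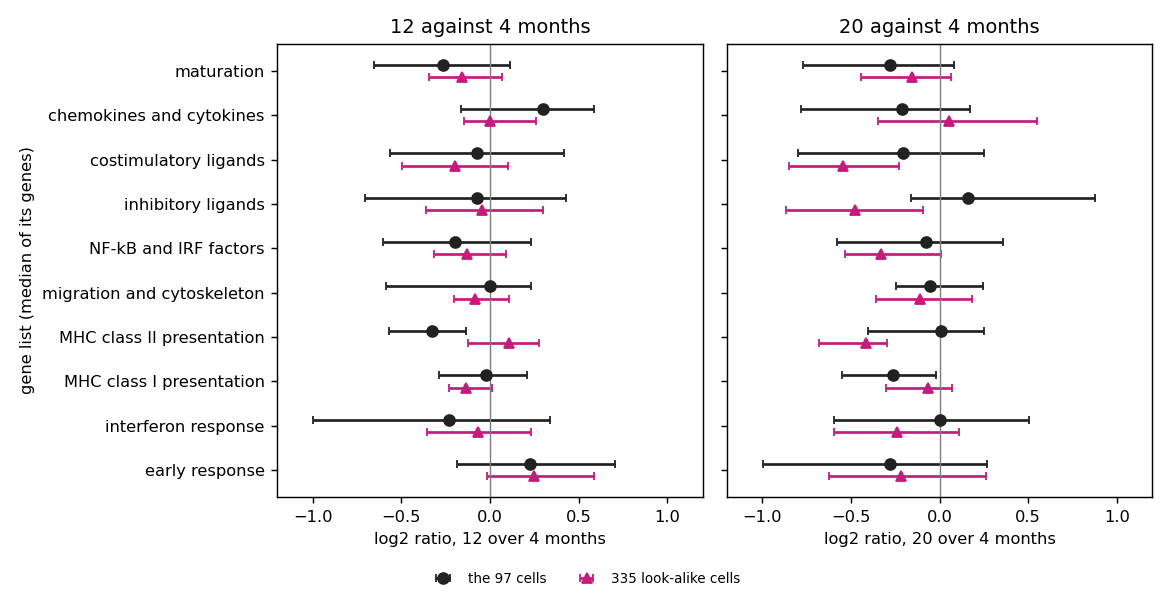
Median log2 ratio of the genes of 10 lists at 12 (left) and 20 (right) over 4 months. Black circles: the 97 mature dendritic cells. Pink triangles: the 335 look-alike cells. Bars run between the medians of the genes' 95% lower and upper counting bounds. All medians shown lie within 1 log2 unit of 0, and lists with only 1 or 2 measured genes in the 97 cells are not drawn. At 20 months the look-alike cells' costimulatory median is -0.55 and their class II median -0.41, against -0.21 and 0.01 in the 97 cells.

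Of the marker genes that no condition used, Ccl22 was lowest at 20 months, by an amount that varied with the processing. It was at 712 CPM (625 to 808) at 4 months, 864 CPM (724 to 1017) at 12 months and 382 CPM (285 to 501) at 20 months, so the 20-month interval did not overlap the others. The log2 ratio of 20 to 4 months was -0.89 (-1.36 to -0.46), -0.18 after thinning to 3500 counts and -1.49 without its 5 highest cells. The share of cells with Ccl22 hardly moved, at 34 of 52, 17 of 24 and 14 of 21, while the highest cell held 39, 27 and 10 counts. In the look-alike cells it was at 975, 996 and 733 CPM, with a log2 ratio of -0.41 (-0.57 to -0.25) at 20 months. Ccl17 was in 16 of 52, 11 of 24 and 3 of 21 cells, with 187, 288 and 88.2 CPM (log2 ratio at 20 months -1.04, -2.11 to -0.18), against -0.18 (-0.57 to 0.21) in the look-alike cells. Cacnb3 had a log2 ratio of 0.26 (-0.24 to 0.73) at 20 months in the picked cells.

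Il12b and Ccl5 gave different age ratios in the 2 sets of cells. The log2 ratio of Il12b at 20 months was 0.05 (-0.22 to 0.32) in the picked cells and 0.97 (0.84 to 1.11) in the look-alike cells, where it was at 846, 1545 and 1662 CPM. Ccl5 had a ratio of 0.32 (0.24 to 0.40) at 12 and 0.08 (-0.01 to 0.17) at 20 months in the picked cells, against -0.002 (-0.04 to 0.04) and 0.53 (0.49 to 0.57) in the look-alike cells, so each set was above 4 months at a different age. Il1b, the inflammatory cytokine, was at 487, 896 and 889 CPM in the picked cells, a log2 ratio of 0.87 (0.52 to 1.22) at 20 months, and at 451, 640 and 549 CPM in the look-alike cells (0.28, 0.07 to 0.49). Of the Il1b counts in the picked cells, 46.1% came from 5 cells.

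**Figure D4:**
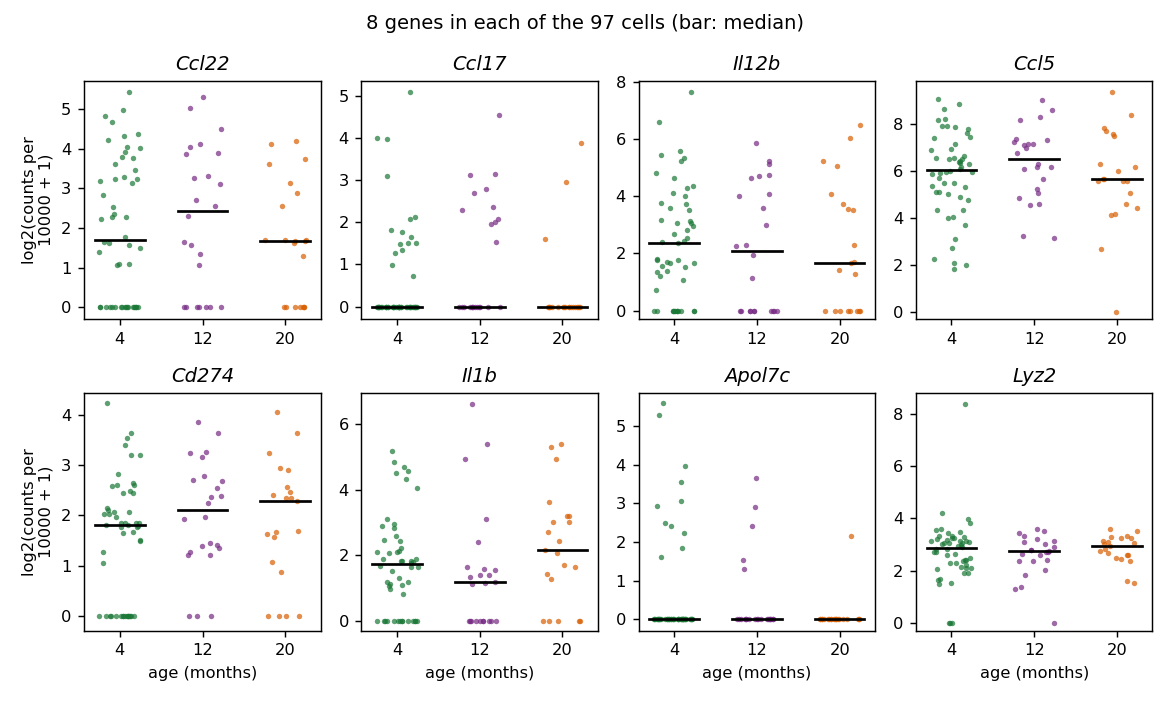
Counts of 8 genes in each of the 97 cells, as log2(counts per 10000 + 1), by age in months (52, 24 and 21 cells, 1 library each), with the median as a bar. Ccl17 and Apol7c have a median of 0 at each age and are carried by few cells, and a single 4-month cell stands far above the rest for Lyz2.

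A rule set out the genes that changed most from 4 to 20 months with the 12-month level between them. The minimum was 100 counts at 4 and 20 months together, which a gene high in the larger 4-month sum reached more easily. Of 751 such genes, 263 met the rule, and of these 3 were at least 2-fold higher and 4 at least 2-fold lower at 20 months. The highest was Apoe, the lipid carrier made by macrophages, at 142, 224 and 389 CPM. Apoe was also 2417, 3115 and 4381 CPM in C1q-high cells and 347, 491 and 630 CPM in Cd3-positive cells of the same libraries, and the part of stray RNA in its level was not tested. Tnfaip8 (217, 230 and 463 CPM) and Rps25-ps1 (193, 224 and 404 CPM) were the other two, and Tnfaip8 had a log2 ratio of 1.10 (0.585 to 1.601) in the picked cells and 0.16 (-0.12 to 0.43) in the look-alike cells. The next 7 rises, all below 2-fold, were Rpl13-ps3, Rpl17-ps3, Laptm4a, Gm4786, Gm6204, Gm5805 and Rps3a1. Pseudogenes of ribosomal proteins among them share sequence with their parents and are uncertain.

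Of the 10 largest falls, Zfp36, an RNA-binding protein that destabilises cytokine transcripts, was also low in the look-alike cells. It was at 920, 768 and 419 CPM in the picked cells (log2 ratio at 20 months -1.13, -1.57 to -0.72) and at 699, 600 and 388 CPM in the look-alike cells (-0.85, -1.06 to -0.64). It was likewise 672, 676 and 479 CPM in C1q-high cells and 410, 337 and 226 CPM in Cd3-positive cells, all lowest at 20 months. Cdkn1a, the cell cycle inhibitor p21, was at 457, 320 and 242 CPM (-0.90, -1.50 to -0.36), with -0.86 (-1.11 to -0.63) in the look-alike cells. Glipr2 was at 1264, 1127 and 661 CPM (-0.93, -1.28 to -0.60), with -0.35 (-0.50 to -0.21) there. The galectin Lgals1 was at 718, 358 and 338 CPM (-1.08, -1.58 to -0.63) in the picked cells, but a single 4-month cell held 101 counts and this rested on few cells: the ratio was -0.0746 with at least 3 counts of Fscn1, -0.0990 with at least 2 of Ccr7 and -0.54 without its 5 highest cells, and 0.13 (-0.08 to 0.34) in the look-alike cells. The others were Fam49a (-1.15), Eif3c (-1.05), Ciao2a (-0.95), Ghitm (-0.95), Ywhae (-0.85) and Hspa5 (-0.83), as log2 ratios of 20 to 4 months.

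**Figure D5:**
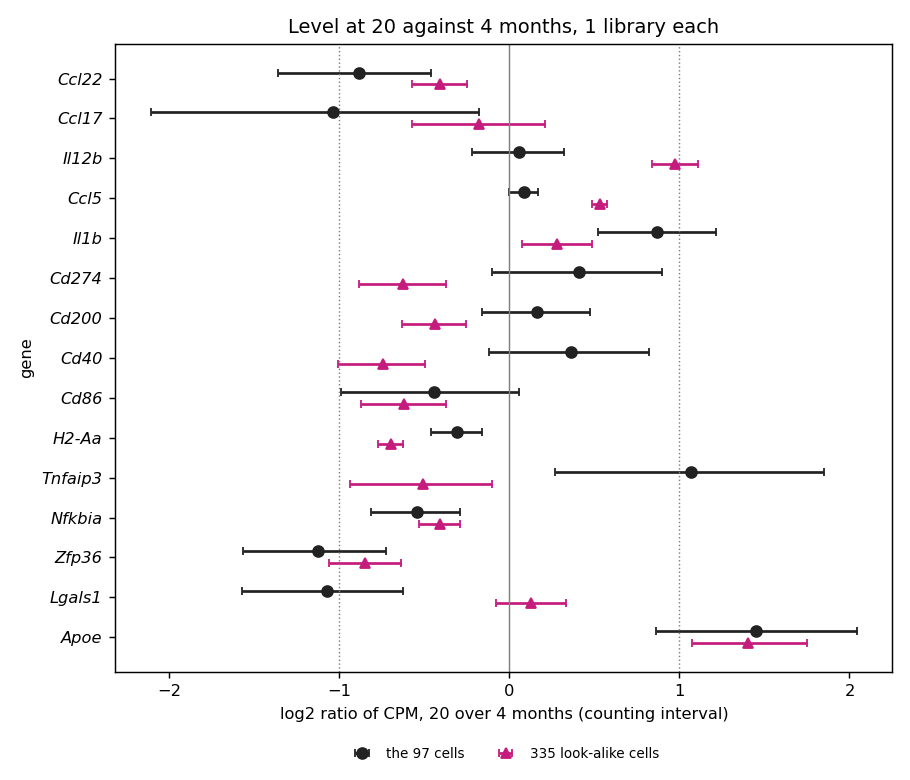
Log2 ratio of CPM at 20 over 4 months for 15 genes, with 95% counting intervals (1 library per age). Black circles: the 97 mature dendritic cells. Pink triangles: the 335 look-alike cells. Dotted lines mark 2-fold. Ccl22 and Zfp36 lie below 0 and Apoe above 0 in both sets, while Il12b is near 0 in the 97 cells and 0.97 in the look-alike cells.

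Some larger differences rested on few cells. Apol7c, a maturation gene, was at 282, 102 and 14.7 CPM by age, in 11, 5 and 1 cells, and the 5 highest cells held 71.7% of its counts. In the look-alike cells it was at 50.95, 166 and 116 CPM, the opposite direction. Lyz2, the lysozyme of myeloid cells, was at 2080, 570 and 669 CPM, but a single 4-month cell held 504 counts, and the medians per cell were 3, 3.5 and 4 counts. Tnfaip3, the A20 gene, was at 94.97, 134 and 198 CPM (log2 ratio at 20 months 1.07, 0.27 to 1.85), with -0.51 (-0.94 to -0.10) in the look-alike cells. For none of these 3 genes did both sets of cells give the same age difference.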

How the data were processed

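The authors deposited 3 matrices of raw counts, 1 per library (14393, 14653 and 14684 cells, with medians of 6789, 7411 and 6936 counts). STAR 2.7.10a and GRCm38 are named in the submitters' processing notes. The counting program, annotation, use of strand, molecular identifiers and cell calling are not given in the sources used here. The members and gene lists were chosen with earlier results of these data known. Deposited counts were summed per library over the picked cells and scaled to CPM. Poisson, Clopper-Pearson, Newcombe and conditional binomial intervals (0.5 added to both counts of a log2 ratio) were computed with scipy 1.17.1, and the ratio code was tested on simulated data. No test was made, with 1 library per age. Genes were named by these rules: any list gene with at least 50 counts, the 15 genes outside the lists with the largest ratio over other cells, and the 10 largest rises and falls with age. Other genes were named after their values were seen. Of 293 list symbols, 1 matched no gene. Doublets were scored with Scrublet in scanpy 1.11.5 and not removed. Positions are from GENCODE M21. Alternatives varied each condition, depth, doublets, denominator, scaling, minimum counts, background and the highest cells.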

Additional observations from a re-analysis of the deposited data

How the results depend on the processing

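No paired analysis was possible because each age has 1 library. Across the alternatives, 17 of 28 share differences, 323 of 353 list medians, 38 of 54 gene counts and 766 of 953 single-gene ratios stayed within their counting interval (gene counts within 1.5 times), and 11, 30, 16 and 187 did not. Of the former, 86 come from a maximum of 20000 counts per cell, which removed 0 cells. The alternatives without the Cd3, Ncr1 and Klrb1c conditions were chosen after seeing the data. Depth limits the rest: the 20-month cells held 136115 counts. Differences in share are in percentage points against 4 months and medians are log2 ratios to 4 months.

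Stricter exclusions left 13 cells (7, 2 and 4), so their values rest on very few cells: shares of -0.0350 at 12 and -0.0214 at 20 months, 12-month medians of 0.515 for maturation, -2.89 for chemokines, 0.29 for NF-kB, 1.18 for class II, -0.44 for class I and -1.18 for interferon genes, a 20-month maturation median of 0.26, 12-month ratios of 0.44 for Lyz2 and 0.0893 for Rsad2, and 20-month ratios of 0.49 for Lgals1 and 0.13 for Lyz2. Without the Cd3, Ncr1 and Klrb1c conditions the share was 0.138 at 12 and -0.341 at 20 months, the class II median 0.11 at 12 and the inhibitory median -0.27 at 20 months, Apol7c 0.45 and Icosl -0.12 at 12 months, and Eif3c 0.0776 and Tnfaip3 -0.17 at 20 months. When cells with the top 6% of doublet scores were also left out these were 0.112 and -0.415 for the share, 0.0589 for class II, -0.27 for inhibitory genes, 0.30 for Apol7c, -0.21 for Icosl, 0.10 for Eif3c and -0.0634 for Tnfaip3. When Ccl22 or Cacnb3 was also required they were 0.167 for the 12-month share, 0.12 for class II, -0.25 for inhibitory genes, 0.415 for Apol7c, -0.17 for Icosl, 0.0210 for Lgals9 at 12 months and -0.12 for Tnfaip3. When cells were also thinned to 3500 counts they were 0.120 for the 12-month share, -0.10 and -0.57 for class II at 12 and 20 months, -0.21 for inhibitory genes, 0.0929 and 0.18 for Apol7c at 12 and 20 months, -0.20 for Icosl, 0.47 for Eif3c and -0.0617 for Tnfaip3. Without any exclusion the 12-month share was 0.240, with 12-month medians of -0.22 for chemokines and 0.17 for class II, 12-month ratios of 0.17 for Apol7c, -0.26 for Icosl and 0.18 for Lgals9, 20-month medians of -0.81 for costimulatory, -0.60 for inhibitory, -0.64 for NF-kB and -0.39 for migration genes, and 20-month ratios of -0.0733 for Tnfaip8, 0.97 for Lgals1, -0.30 for Tnfaip3 and 0.17 for Lyz2. Of dendritic cells alone, the share was 13.3 points higher at 12 and 0.889 higher at 20 months. With the 5 cells highest for a gene left out, the class II median was -0.67 and Icosl -0.18 at 12 months, and at 20 months the medians were -0.95 for chemokines, -0.74 for inhibitory, -0.60 for NF-kB and -1.05 for early-response genes and Lyz2 was 0.13. After subtraction of the level in Cd3-positive cells the class II median was -0.85 at 12 and -0.44 at 20 months and the early-response median 1.46 at 20 months. Thinning alone gave 0.28 for Eif3c and 0.24 for Apol7c at 20 months.

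The settings also changed counts of genes 2-fold apart from the other dendritic cells. Under stricter exclusions 33 were higher and 23 lower than in type 1, 25 and 26 than in type 2, and 58 and 54 than in plasmacytoid cells. Without the Cd3, Ncr1 and Klrb1c conditions these were 402 and 1161, 416 and 845, and 531 and 2003. Without any exclusion 1186 were lower than in type 1, 365 higher and 708 lower than in type 2, and 1985 lower than in plasmacytoid cells. Main counts are 248 and 425, 229 and 338, and 332 and 811, of 2797, 2618 and 3111 genes compared. The minimum of counts for a comparison was set at the picked cells' total, so the number of genes compared can change with the cells. These settings held 13, 432 and 484 cells in that order, against 97. Their numbers of genes compared are not given here, so the counts do not show whether a larger or smaller share of genes differed. The cause of these changes was not tested.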
